A study of Arabidopsis thaliana with 9 samples.

Results

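The genes described here are 10 regulators of the response of Arabidopsis thaliana to light and to shade, followed by their locus identifiers through all 9 samples of an RNA-Seq experiment on flooding. They are the transcripts of PIF1 (AT2G20180), PIF3 (AT1G09530), PIF4 (AT2G43010), PIF5 (AT3G59060), PIF7 (AT5G61270), HFR1 (AT1G02340), PIL1 (AT2G46970), ATHB2 (AT4G16780), HY5 (AT5G11260) and HYH (AT3G17609). All 10 were found among 32833 genes in the deposited table, where PIF7 is listed as BHLH72 and ATHB2 as HAT4. Wild-type Columbia-0 plants at an age of 4 weeks, grown on peat pellets, were exposed for 30 min to flooding with physical flow, in which water ran over them at 8 L/s, or for 30 min to submergence in standing water, or were kept as untreated controls. Shoots were collected in 3 samples per group, which the methods give as independent biological replicates. Each sample was a pool of plants, so differences between single plants cannot be seen and the p-values measure the spread between pools. The flooded plants stood in an open water channel and the submerged plants in a plastic container, so flow and vessel cannot be told apart in the comparison of both stresses. The hour of sampling and the light over the channel, the container and the controls are not given in the sources used here. Time of day, light and handling therefore cannot be told apart from water in the comparisons with control. A rosette holds several cell types, and in such bulk RNA fewer cells of a type and less RNA per cell cannot be told apart.

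PHYTOCHROME-INTERACTING FACTORS (PIFs) are basic helix-loop-helix transcription factors that promote stem and petiole elongation in darkness and in shade, and phytochromes activated by red light lead to their phosphorylation and, for most of them, their degradation. HFR1 and PIL1 belong to the same protein family and are induced by shade, and HFR1 binds PIFs and keeps them from DNA, while ATHB2 is a homeodomain-leucine zipper factor that is a classical marker of shade. HY5 and its close homologue HYH are basic leucine zipper factors that promote de-etiolation and pigment synthesis, and the COP1 and SPA proteins target them for degradation in darkness. Much of this control acts on the proteins, which were not measured here.

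Expression was given as FPKM, that is, fragments counted per length of transcript and scaled to the depth of the library, so levels of different genes can be compared per length. The FPKM of a sample summed to between 752249 and 786474, and the lowest steps among short genes put 1 fragment per kilobase at about 0.051 to 0.055 FPKM in flooding samples, 0.04 to 0.059 in submergence samples and 0.034 to 0.046 in control samples. Rosette leaf markers (RBCS1A, CA1, LHCB2.1 and CAB2, 4 of 4 found) summed to 12890 to 16660 FPKM in flooding samples, 13490 to 16610 in submergence samples and 14800 to 17280 in control samples. Within that list the antenna protein genes LHCB2.1 (1013 to 1413 FPKM in flooding samples, 1023 to 1171 in submergence samples, 662.1 to 746.2 in control samples) and CAB2 were higher in every stressed sample than in any control sample, while RBCS1A was lower in every flooding sample and CA1 in every submergence sample. Their part in the results was not tested. Markers of the shoot apex summed to 0.25 to 6.53 FPKM in flooding samples (4 of 6 genes above 0), 0.14 to 10.2 in submergence samples (5 of 6) and 0.18 to 3.27 in control samples (5 of 6), and CLV3 was at 0 in every sample. Root markers summed to 30.3 to 141.3 FPKM in flooding samples, 68.1 to 120.6 in submergence samples and 44.2 to 106.1 in control samples, almost all from PYK10, and the root hair gene EXPA7 was at 0 in every sample.

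Each stress was compared with the control to ask which of these regulators differed after 30 min under water. Both stresses were compared with each other to ask how flooding in flowing water differed from standing water. In response to flooding with physical flow, PIF5, PIF7 and HYH were up-regulated and PIF1 and HFR1 were down-regulated (limma, adjusted p < 0.05 over all genes tested). These are 5 of the 9 regulators that could be tested, against 28.5% of all genes called in that comparison, 11.4% up and 17.2% down. The regulators were chosen with earlier results of these data known, so this share is a description and was not tested. In response to submergence, PIF5 was up-regulated and PIF1 was down-regulated, 2 of 10 regulators against 17.5% of all genes (9.03% up and 8.45% down), which is near the background. No regulator was called between flooding and submergence, where 0% of all genes were called by limma, although 14.7% of all genes and 2 regulators (HFR1 and ATHB2) had an unadjusted p under 0.05. The median log2 fold change of the tested regulators was −0.03 under flooding, where it was −0.10 over all genes, and −0.05 under submergence, where it was −0.03 over all genes. Both stresses share the 3 control samples, so their fold changes are not independent of each other.

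**Figure D1:**
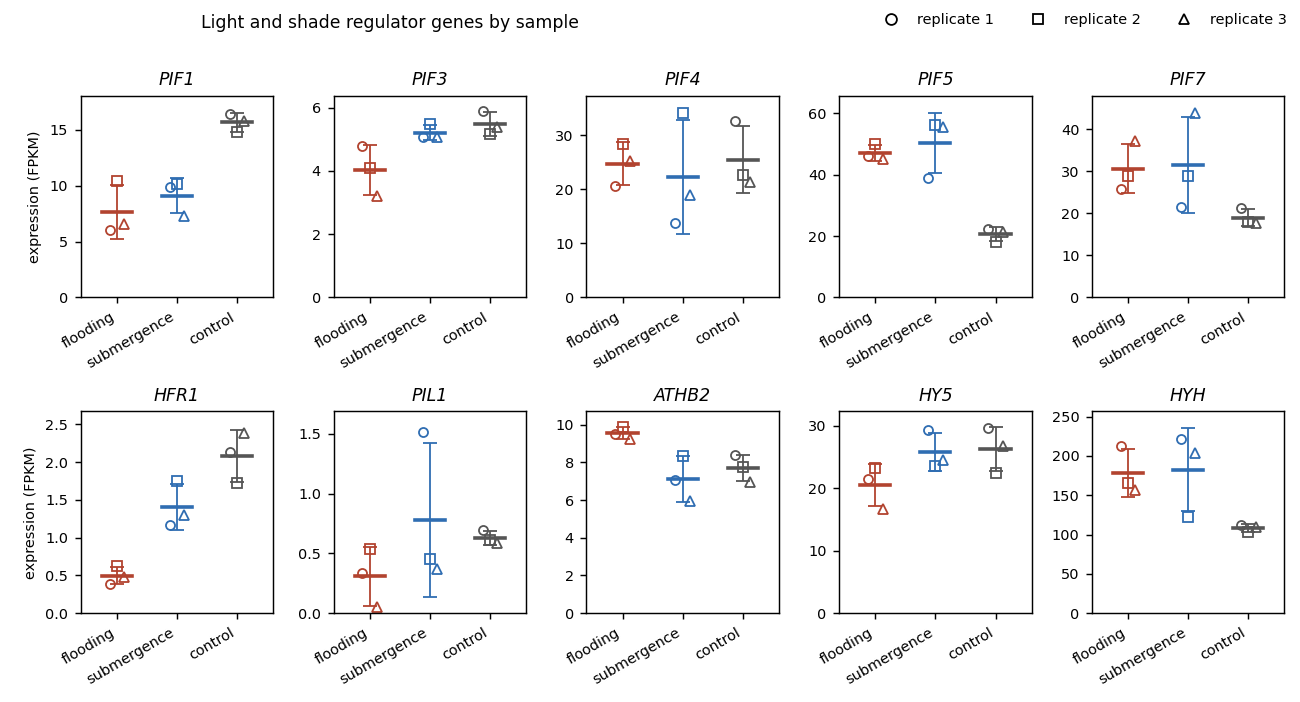
Expression (FPKM, linear axes from 0) of the 10 regulators in each sample, with flooding, submergence and control samples from left to right. Symbols are replicates, thick bars are means and error bars are SDs of 3 samples. All flooding and submergence samples of PIF5 lie above the control samples, all those of PIF1 lie below them, and HFR1 is lowest in the flooding samples.

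The largest change within the PIF family was that of PIF5, a PIF that promotes elongation and leaf senescence and acts largely together with PIF4. PIF5 (build TAIR10, chromosome 3, 21827905 to 21830837, minus strand) had 46.1, 50.1 and 45.1 FPKM in flooding samples, 38.9, 56.2 and 55.5 FPKM in submergence samples and 22.4, 18.1 and 21.3 FPKM in control samples. Every stressed sample was above every control sample. The log2 fold change was 1.20 under flooding (SE 0.10, limma adjusted p = 0.000151) and 1.27 under submergence (SE 0.16, adjusted p = 0.00345). Between flooding and submergence the difference in log2 was −0.07 with a 95% interval of −0.44 to 0.30.

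PIF1, which represses seed germination and holds back chlorophyll synthesis in darkness, moved the other way. PIF1 (chromosome 2, 8704024 to 8707009, minus strand) had 6.0, 10.5 and 6.53 FPKM in flooding samples, 9.88, 10.2 and 7.28 FPKM in submergence samples and 16.4, 14.8 and 15.8 FPKM in control samples. The groups under water overlapped each other, and neither overlapped the controls. Its log2 fold change was −1.06 under flooding (SE 0.20, limma adjusted p = 0.00697) and −0.79 under submergence (SE 0.14, adjusted p = 0.0112). The call under submergence was lost without control replicate 3, with an adjusted p of 0.0507. Flooding differed from submergence by −0.28 in log2, with a 95% interval of −0.84 to 0.29. The annotated gene AT2G20170 overlaps PIF1 on the other strand by 334 bp and had at most 0.04 FPKM in any sample.

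The 250 bases upstream of the annotated starts of these oppositely changed genes are shown, since PIFs and HY5 are known to bind the G-box CACGTG and related elements with the core ACGT. They were read from the TAIR10.1 genome of RefSeq, on which all 10 regulators have the coordinates of the deposited table, and capitals mark the G-box.
PIF5, chr3:21830838-21831087, minus strand: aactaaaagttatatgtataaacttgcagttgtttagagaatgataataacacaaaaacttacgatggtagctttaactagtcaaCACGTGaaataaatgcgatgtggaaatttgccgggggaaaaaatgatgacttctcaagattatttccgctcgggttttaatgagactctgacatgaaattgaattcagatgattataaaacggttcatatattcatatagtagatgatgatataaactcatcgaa
PIF1, chr2:8707010-8707259, minus strand: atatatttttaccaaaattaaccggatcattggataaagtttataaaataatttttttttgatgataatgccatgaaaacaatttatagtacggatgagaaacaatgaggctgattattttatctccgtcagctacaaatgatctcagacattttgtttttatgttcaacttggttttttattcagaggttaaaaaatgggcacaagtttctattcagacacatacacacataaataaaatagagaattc

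On either strand, PIF5 was the only regulator of the 10 with a G-box in this window, its first base lying 165 bases upstream of the start, and 6.48% of 27419 such windows in the genome held one. The PBE-box CACATG was found in 1 of 10 windows, 138 bases upstream of HY5 in a stretch that overlaps the neighbouring gene AT5G11270, and in 11.1% of all windows. The core ACGT, which every G-box contains, was in the windows of PIF4, PIF5, PIL1, HY5 and HYH, 5 of 10, and in 44.1% of all windows. The evening element AAATATCT, to which CCA1 and LHY bind, was in 0 of 10 windows and in 4.79% of all windows. Such matches describe these letters in this window and are not evidence of binding.

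PIF7, which drives auxin synthesis when shade leaves it unphosphorylated, had 25.8, 28.8 and 37.1 FPKM in flooding samples, 21.6, 29.0 and 43.9 FPKM in submergence samples and 21.3, 17.9 and 17.7 FPKM in control samples. In both stresses the samples lay above all controls, but submergence replicate 1 lay only just above the highest of them. The log2 fold change was 0.68 under flooding (SE 0.15, limma adjusted p = 0.0131) and 0.67 under submergence (SE 0.24, adjusted p = 0.105), so changes of nearly the same size were called in 1 stress and not in the other. Without submergence replicate 1 the adjusted p under submergence was 0.0157, and under flooding the call was lost without control replicate 2 (0.0546) or control replicate 3 (0.0562). PIF7 (chromosome 5, 24638491 to 24640765, minus strand) overlaps AT5G61260 on the other strand by 318 bp, and that gene had between 0.79 and 1.77 FPKM.

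The remaining PIFs did not pass the test. PIF4, the PIF known for growth at warm temperature, had 20.6, 28.5 and 25.3 FPKM in flooding samples, 13.8, 34.1 and 19.0 FPKM in submergence samples and 32.6, 22.6 and 21.3 FPKM in control samples. These ranges overlapped throughout, and the 95% intervals of the log2 fold change ran from −0.46 to 0.41 under flooding and from −1.04 to 0.51 under submergence. PIF3, the first PIF found as a phytochrome partner, had 4.79, 4.10 and 3.20 FPKM in flooding samples, 5.07, 5.50 and 5.07 FPKM in submergence samples and 5.89, 5.17 and 5.39 FPKM in control samples. All flooding samples of PIF3 lay below the other 6, but the log2 fold change of −0.45 against control (SE 0.16) had an adjusted p of 0.0775 in limma. Groups that do not overlap are frequent in that comparison, where 46.6% of all genes and 7 of the 9 tested regulators showed this. Under submergence it held for 38.5% of all genes and for 4 of 10 regulators.

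Within each sample the PIF5 level was divided by that of PIF1, so that a common scaling of the sample cancels. The ratio was 7.69, 4.79 and 6.91 in flooding samples, 3.94, 5.51 and 7.62 in submergence samples and 1.37, 1.22 and 1.35 in control samples. It averaged 6.46 ± 1.5 in flooding samples, 5.69 ± 1.85 in submergence samples and 1.31 ± 0.0788 in control samples (SD, n = 3 each). This pair and the other pairs of genes below were chosen with their changes known, so the ratios are a description and were not tested. The 5 PIF genes together summed to 114.2 ± 9.62 FPKM in flooding samples, 118.3 ± 25.3 FPKM in submergence samples and 86.2 ± 10.9 FPKM in control samples. Of this sum PIF5 made up 41.4% ± 3.06 in flooding samples, 42.5% ± 1.01 in submergence samples and 23.9% ± 1.88 in control samples, and the ranges of both stresses lay above those of the controls. PIF4 made up 21.6% ± 1.65 of it in flooding samples, 18.4% ± 5.99 in submergence samples and 29.3% ± 3.48 in control samples. In control samples PIF4, PIF5 and PIF7 overlapped in level, whereas in flooding samples PIF5 lay above both of the others, and in submergence samples it still overlapped PIF7.

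**Figure D2:**
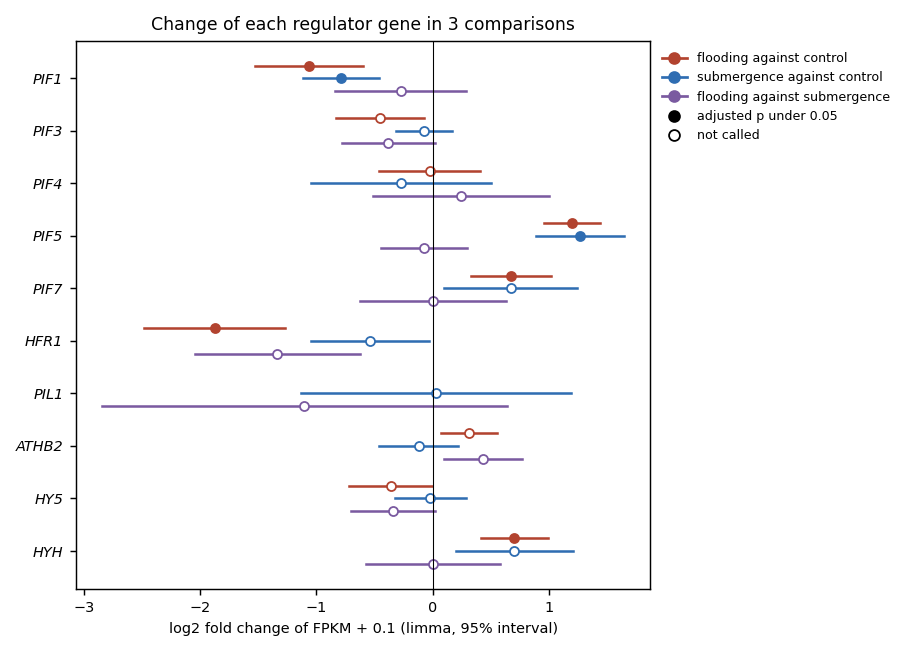
Log2 fold change of FPKM + 0.1 with its 95% interval from limma for each regulator, in flooding against control, submergence against control and flooding against submergence. Filled points have an adjusted p under 0.05, and PIL1 was not tested for flooding against control. The intervals of PIF5 and PIF1 lie on opposite sides of 0 in both stresses, and no point of flooding against submergence is filled.

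Among the genes induced by shade, HFR1 fell furthest of all regulators tested under flooding. HFR1 (chromosome 1, 465616 to 467880, minus strand) had 0.39, 0.62 and 0.48 FPKM in flooding samples, 1.17, 1.75 and 1.30 FPKM in submergence samples and 2.13, 1.72 and 2.39 FPKM in control samples. The flooding samples lay below all others, while submergence replicate 2 lay within the control range. Its log2 fold change was −1.88 under flooding (SE 0.26, limma adjusted p = 0.00167) and −0.54 under submergence (SE 0.21, adjusted p = 0.136). Between flooding and submergence the difference was −1.34 in log2, with a 95% interval of −2.04 to −0.63 and an adjusted p of 0.170. Fitting all 9 samples at once gave that difference an adjusted p of 0.0445. The levels were low: the FPKM steps put them at about 11, 18 and 13 fragments in flooding samples, 30, 66 and 43 in submergence samples and 96, 76 and 80 in control samples. A pseudocount of 1 in place of 0.1 gave a log2 fold change of −1.04 under flooding (adjusted p = 0.00138), and requiring a mean FPKM of at least 2 removed HFR1 from the test.

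The 250 bases before the HFR1 start held none of the 4 motifs searched and are shown to compare with the PIF5 window above.
HFR1, chr1:467881-468130, minus strand: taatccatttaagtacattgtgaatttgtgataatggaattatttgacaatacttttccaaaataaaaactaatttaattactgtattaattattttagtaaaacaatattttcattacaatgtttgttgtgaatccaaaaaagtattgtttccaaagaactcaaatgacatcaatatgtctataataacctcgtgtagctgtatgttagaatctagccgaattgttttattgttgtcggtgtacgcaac

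PIL1, which in shade is among the fastest transcripts to rise, was barely expressed. It had 0.34, 0.54 and 0.05 FPKM in flooding samples, 1.52, 0.45 and 0.37 FPKM in submergence samples and 0.70, 0.61 and 0.59 FPKM in control samples. The lowest flooding value stood for about 1.6 fragments, and the mean over flooding and control samples was under the minimum of 0.5 FPKM, so that comparison was not tested. Under submergence the log2 fold change was 0.03 (SE 0.49, limma adjusted p = 0.973), with the high value of submergence replicate 1 standing apart from the other 2. That sample also had the highest sum of shoot apex markers, 10.2 FPKM, whose part in the PIL1 value was not tested.

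ATHB2 showed a small difference between flooding and control whose adjusted p lay near the threshold. It had 9.49, 9.90 and 9.25 FPKM in flooding samples, 7.06, 8.34 and 5.94 FPKM in submergence samples and 8.37, 7.73 and 6.97 FPKM in control samples. All flooding samples were above all others, and the log2 fold change was 0.31 against control (SE 0.10, limma adjusted p = 0.0583) and 0.43 against submergence (SE 0.14, adjusted p = 0.248). The adjusted p against control was under the threshold after median-of-ratios rescaling (0.0155), after quantile normalization (0.0259) and where a mean FPKM of 2 or more was required (0.0481). It stayed above the threshold in all 6 limma fits that left out a sample (0.0546 to 0.184). Against control, submergence gave −0.12 with a 95% interval of −0.46 to 0.22.

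HAT1, a close relative of ATHB2 that is likewise shade induced, behaved differently in the same samples. HAT1 had 114.9, 122.3 and 127.6 FPKM in flooding samples, 112.4, 134.4 and 121.2 FPKM in submergence samples and 16.4, 15.7 and 16.9 FPKM in control samples. Its log2 fold changes of 2.89 under flooding and 2.90 under submergence (limma adjusted p = 3.68e-06 and 4.5e-05) were among the largest of the pathway. HAT2 and HAT3, followed as shade genes like HAT1, went the other way. HAT2 changed by −1.45 under flooding and −0.87 under submergence (adjusted p = 0.00271 and 0.0114). HAT3 changed by −0.98 under flooding (adjusted p = 0.0302) and was not called under submergence (−0.78, adjusted p = 0.213). The ratio of HAT1 over ATHB2 in a sample was 12.8 ± 0.914 in flooding samples, 17.5 ± 2.54 in submergence samples and 2.13 ± 0.25 in control samples (SD, n = 3 each), with no overlap between any of the groups.

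**Figure D3:**
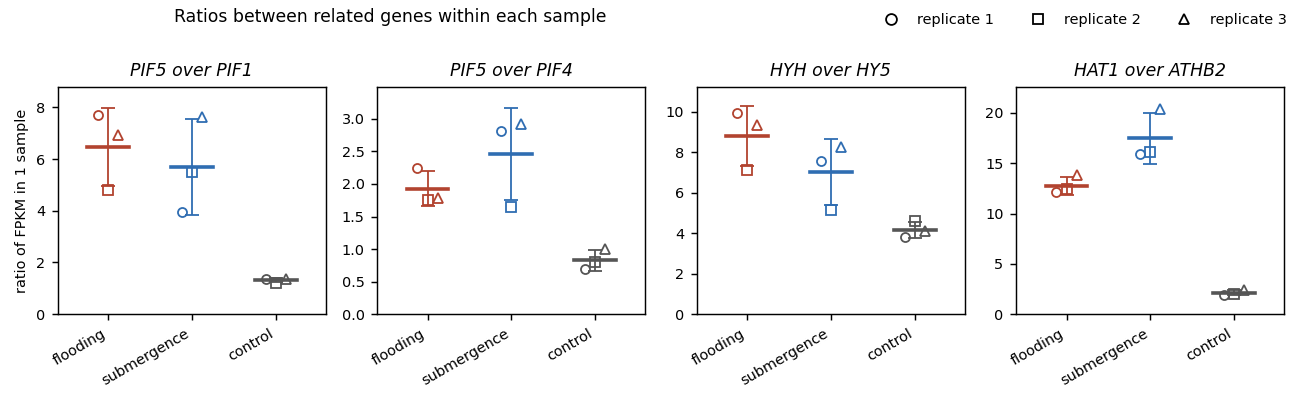
Ratio of FPKM between related genes within each sample (linear axes from 0), with flooding, submergence and control samples from left to right, means as thick bars and SDs of 3 samples as error bars. PIF5 over PIF1, PIF5 over PIF4, HYH over HY5 and HAT1 over ATHB2 are all higher in every flooding and submergence sample than in any control sample.

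HYH was the most abundant of the 10 regulators per length in each group, and under flooding it was called while HY5 was not. Whether both genes differed in their response was not tested. HYH (chromosome 3, 6023844 to 6024710, plus strand) had 212.7, 165.7 and 156.6 FPKM in flooding samples, 221.7, 122.2 and 203.8 FPKM in submergence samples and 112.7, 103.4 and 109.6 FPKM in control samples. All samples under water lay above all controls, with submergence replicate 2 closest to them. The log2 fold change was 0.70 in both stresses, with an SE of 0.12 under flooding (limma adjusted p = 0.00526) and 0.21 under submergence (adjusted p = 0.0653). Without submergence replicate 2 the change under submergence was 0.97 with an adjusted p of 0.00414.

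HY5 (chromosome 5, 3593335 to 3595073, minus strand) had 21.4, 23.3 and 16.7 FPKM in flooding samples, 29.3, 23.6 and 24.6 FPKM in submergence samples and 29.6, 22.5 and 26.7 FPKM in control samples. Flooding replicate 2 lay within the control range and the other 2 flooding samples lay below it, and the log2 fold change of −0.36 (SE 0.15) had an adjusted p of 0.117 in limma. Under submergence the change was −0.02 with a 95% interval of −0.33 to 0.28. The ratio of HYH over HY5 in a sample was 9.93, 7.12 and 9.36 in flooding samples, 7.58, 5.17 and 8.29 in submergence samples and 3.81, 4.60 and 4.10 in control samples. All ratios under water exceeded all control ratios. The window before the HYH start is shown because its core ACGT, in capitals, begins 55 bases upstream.
HYH, chr3:6023594-6023843, plus strand: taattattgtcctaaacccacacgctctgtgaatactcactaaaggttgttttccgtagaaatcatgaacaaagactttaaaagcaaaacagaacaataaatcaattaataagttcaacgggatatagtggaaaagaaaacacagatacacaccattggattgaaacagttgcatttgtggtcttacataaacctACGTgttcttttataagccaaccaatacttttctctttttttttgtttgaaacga

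HYH, PIF4 and some genes of the circadian clock had their lowest or highest submergence value in the same sample. CCA1 and LHY, morning-phased MYB factors of the clock, had 215.2, 134.3 and 172.5 FPKM and 282.8, 153.2 and 228.4 FPKM in submergence replicates 1, 2 and 3, so replicate 2 was lowest in both, as it was for HYH. PRR7, a repressor of CCA1 and LHY, had 14.6, 43.3 and 23.5 FPKM in these samples, and PIF4 showed the same order with its highest value in replicate 2. Of the other clock genes followed, PRR5 and PRR9 were also highest in replicate 2 and ELF3 was lowest there. TOC1, LUX and ELF4 were instead highest in replicate 3 and lowest in replicate 1. Replicate 2 was chosen for this description after its values were seen, and the part of this variation in the HYH and PIF4 results was not tested.

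**Figure D4:**
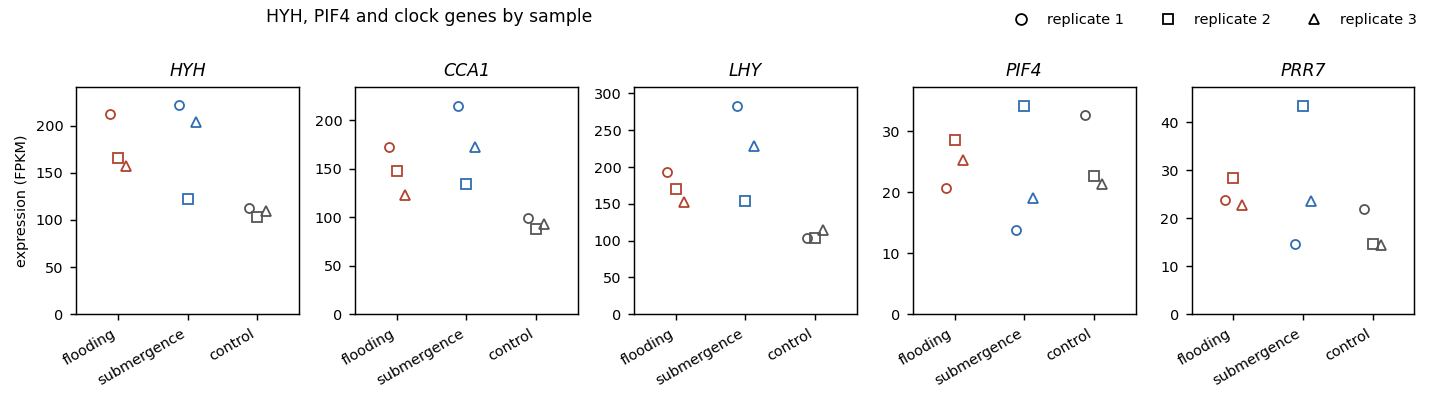
Expression (FPKM, linear axes from 0) of HYH, CCA1, LHY, PIF4 and PRR7 in each sample, with flooding, submergence and control samples from left to right and replicates as symbols. Submergence replicate 2 (square) is the lowest submergence sample for HYH, CCA1 and LHY and the highest for PIF4 and PRR7.

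Other genes of the pathway were followed as 71 genes in 7 lists. Of 66 that could be tested, 19 were up-regulated and 13 were down-regulated in response to flooding, and 16 were up-regulated and 8 were down-regulated in response to submergence. These are 48.5% of the tested genes under flooding, where 28.5% of all genes were called, and 36.4% under submergence, where 17.5% of all genes were called. The lists were chosen with earlier results of these data known, so the higher shares are a description and were not tested. Between flooding and submergence 0 of 63 were called by limma. An unadjusted p under 0.05 was found for 14 of the 63, and for 14.7% of all genes. By list, the flooding test called 40% of photoreceptors, 33.3% of signal transduction genes, 50% of B-box factors and 69.2% of shade and PIF targets. It called 60% of HY5 targets, 28.6% of DELLA and brassinosteroid partners and 55.6% of clock regulators. Under submergence these shares were 30%, 25%, 40%, 76.9%, 0%, 0% and 44.4%. Each list has only 5 to 13 tested genes, so 1 call moves its share widely.

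Photoreceptor transcripts moved down where they moved at all. Of 10 genes, 4 were down-regulated under flooding (PHYA, PHYD, CRY2 and UVR8), 3 under submergence (PHYD, CRY2 and UVR8), and 0 were up-regulated in either. Over all genes 17.2% were down under flooding and 8.45% under submergence, and the difference from these shares was not tested. PHYD, a minor phytochrome close to PHYB, had 5.16, 4.79 and 3.91 FPKM in flooding samples, 4.91, 6.08 and 4.80 FPKM in submergence samples and 8.99, 8.19 and 8.35 FPKM in control samples, with log2 fold changes of −0.88 under flooding and −0.69 under submergence. PHYA, the phytochrome of far-red light, changed by −0.39 under flooding (limma adjusted p = 0.006), and the blue light receptor CRY2 by −0.50 under flooding and −0.31 under submergence. PHYB, the main shade receptor, and the blue light receptor CRY1 were not called in either stress. The submergence calls of CRY2 and UVR8 depended on single samples, as leaving out any single control sample or submergence replicate 2 ended both, as did leaving out submergence replicate 3 for UVR8, with adjusted p of at most 0.108 for CRY2 and 0.127 for UVR8.

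Among 12 signal transduction genes, 3 were up-regulated in each stress and 1 was down-regulated under flooding. That is 33.3% under flooding and 25% under submergence, not far from the 28.5% and 17.5% of all genes. FHL and FHY1 are related proteins that carry phyA into the nucleus, and their transcripts were called in opposite directions under flooding. FHL had 4.65, 4.06 and 4.73 FPKM in flooding samples, 3.55, 5.50 and 5.31 FPKM in submergence samples and 1.21, 1.63 and 1.08 FPKM in control samples. Its log2 fold change was 1.72 under flooding and 1.79 under submergence, while FHY1 changed by −0.53 under flooding (limma adjusted p = 0.00937). Under submergence FHY1 was not called (−0.35, adjusted p = 0.063). RUP1, which returns the UV-B receptor UVR8 to its inactive form, was up-regulated by 0.60 under flooding and 1.14 under submergence in log2, and SPA1 by 0.33 under submergence. COP1, the ubiquitin ligase that works with the SPA proteins, was not called. Without control replicate 1, control replicate 2 or flooding replicate 1 the flooding call of RUP1 was lost (adjusted p at most 0.073), and the submergence call of SPA1 was lost without any single control sample or submergence replicate 2 or 3 (at most 0.136).

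B-box factors act with or against HY5, and 4 of the 10 tested were up-regulated in each stress, with 1 down-regulated under flooding. Up-regulated genes made up 11.4% of all genes under flooding and 9.03% under submergence. BBX32, a repressor of light responses, had 15.9, 11.4 and 16.4 FPKM in flooding samples, 11.96, 7.88 and 13.9 FPKM in submergence samples and 2.43, 1.96 and 1.4 FPKM in control samples. Its log2 fold changes of 2.87 under flooding and 2.47 under submergence (limma adjusted p = 9.37e-05 and 0.00192) exceeded those of BBX24 (0.66 under flooding, 0.76 under submergence) and BBX28 (0.89 under flooding, 1.03 under submergence), which were also called in both stresses. BBX30, which encodes a small B-box protein, was called under flooding with a log2 fold change of 1.26, and its difference between the stresses was not called. Leaving out single samples ended the call of BBX24 in both stresses (control replicate 2, adjusted p = 0.0512 under flooding and 0.056 under submergence), that of BBX28 in both (control replicates 2 and 3, at most 0.0544 and 0.0571) and that of BBX30 (control replicates 2 and 3, flooding replicates 1 and 3, at most 0.112).

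Known shade and PIF target genes held changes in both directions, with 5 up and 4 down of 13 tested under flooding and 7 up and 3 down under submergence. Called genes made up 28.5% of all genes under flooding and 17.5% under submergence. The auxin synthesis gene YUC5 had 1.92, 1.55 and 3.56 FPKM in flooding samples, 1.12, 1.89 and 2.53 FPKM in submergence samples and 0.07, 0.02 and 0.01 FPKM in control samples. All stressed samples were far above the controls, whose values lay near the lowest steps of the table, so the log2 fold changes of 4.14 under flooding and 3.82 under submergence depend on the pseudocount of 0.1. IAA29, an auxin response repressor and PIF target, had 0.15, 0.13 and 0.17 FPKM in flooding samples, 0.34, 0.31 and 0.19 FPKM in submergence samples and 1.73, 1.65 and 1.4 FPKM in control samples. PRE1, a helix-loop-helix growth promoter, had 0.31, 0.58 and 0.29 FPKM in flooding samples, 0.14, 0.23 and 0.18 FPKM in submergence samples and 2.27, 0.99 and 1.22 FPKM in control samples. Both were down-regulated in each stress, so known targets of PIFs were called in both directions. The values of IAA29 and PRE1 under water were low, not far above the lowest steps of the table. Requiring a mean FPKM of at least 2 took both out of the test. The list then held 2 down calls under flooding rather than 4, and 1 under submergence rather than 3. The flooding call of PRE1 was lost without control replicate 1 or 3 or flooding replicate 1 (limma adjusted p at most 0.0838).

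HY5 target genes, 5 of them tested, gave 3 up-regulated transcripts under flooding and 0 called under submergence. For comparison, 11.4% of all genes were up under flooding and 17.5% were called under submergence. The flavonoid synthesis genes F3H and FLS1 and the light stress gene ELIP2 had log2 fold changes of 1.15, 1.23 and 0.87 under flooding (limma adjusted p = 0.0198, 0.0246 and 0.0104). F3H had 19.9, 32.2 and 17.3 FPKM in flooding samples, 20.7, 7.62 and 8.72 FPKM in submergence samples and 9.93, 7.36 and 13.5 FPKM in control samples, so submergence replicate 1 lay with the flooding samples. No HY5 target was called between the stresses. The flooding calls of F3H (without control replicate 1 or 2, adjusted p at most 0.0656) and FLS1 (without any single control sample, at most 0.0882) rested on single samples. Of the DELLA and brassinosteroid partners of PIFs, GAI, a DELLA repressor that binds PIFs, changed by −0.96 and its relative RGL1 by 0.42 under flooding. The 28.6% called in this list under flooding is near the 28.5% of all genes, and 0 of 7 were called under submergence. The call of RGL1 was lost without control replicate 2 or 3 or any single flooding sample (at most 0.149).

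Clock regulators of PIF transcription were called in 5 of 9 cases under flooding, 3 of them up, and in 4 of 9 under submergence, 2 of them up. The share called over all genes was 28.5% under flooding and 17.5% under submergence. ELF3, a member of the evening complex that represses PIF4 and PIF5, had 18.7, 16.4 and 17.3 FPKM in flooding samples, 24.2, 21.7 and 23.0 FPKM in submergence samples and 31.0, 30.0 and 29.2 FPKM in control samples. The 3 groups did not overlap, and its log2 fold changes were −0.78 under flooding and −0.39 under submergence (limma adjusted p = 0.000457 and 0.0142). PRR5 was down-regulated with log2 fold changes of −1.05 under flooding and −0.79 under submergence, and CCA1 and LHY were up-regulated by 0.65 and 0.67 under flooding and by 0.87 and 1.00 under submergence. Under submergence the calls of this list depended on single samples: ELF3 was lost without control replicate 1 or 2, CCA1 without control replicate 2 or 3, and LHY and PRR5 without any single control sample or submergence replicate 3, with adjusted p of at most 0.0652, 0.0628, 0.0769 and 0.128.

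**Figure D5:**
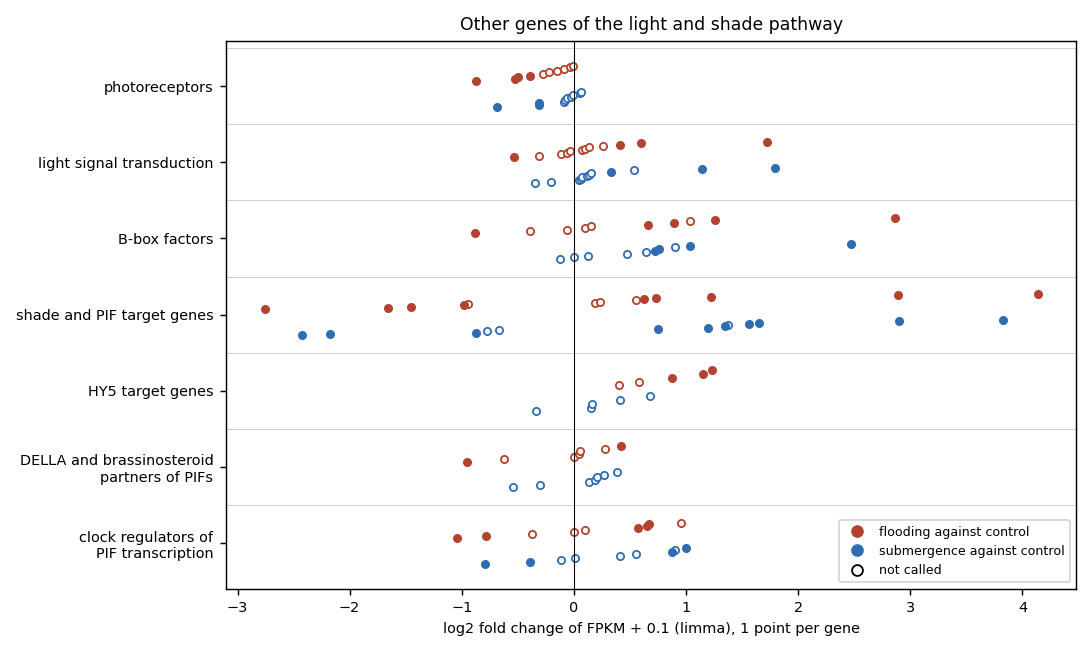
Log2 fold change of FPKM + 0.1 for the other genes of the pathway, 1 point per tested gene, in rows by list, with flooding against control in the upper and submergence against control in the lower part of each row. Filled points have an adjusted p under 0.05. Called photoreceptor genes all lie below 0, while called shade and PIF target genes lie on both sides of it.

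In flooding against submergence, groups of 4 of the 10 regulators did not overlap (PIF3, HFR1, ATHB2 and HY5), where this held for 21.6% of all genes. HY5 had a log2 difference of −0.34 with a 95% interval of −0.70 to 0.02, and PIF3 one of −0.38 with an interval of −0.78 to 0.02. For HYH and PIF7 the differences were 0.00 and 0.00, with intervals of −0.58 to 0.58 and −0.63 to 0.63, whose bounds are smaller than their changes against control.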

How the data were processed

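RNA from shoots of 9 samples (3 each of flooding with physical flow, submergence and control, each a pool of plants) was sequenced by the authors, who used STAR for mapping to TAIR10 after trimming, featureCounts for counting and DESeq2 1.20.0 for testing. The FPKM values used here were made and deposited by the authors, with 2 decimals and 1 column per sample. The name under which they were deposited points to a counting tool other than featureCounts, and the tool behind the values is not given in the sources used here, nor is whether counting used the strand. Columns of the stressed samples name no stress and their group was read off the headings of plots in the study's supplement, with the digit of the column name as the replicate. The members and gene lists were chosen with earlier results of these data known.

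Every comparison used only its 6 samples, in limma 3.58.1 under R 4.3.3 (lmFit, eBayes with trend, two-sided). Genes below a mean of 0.5 FPKM were left out and log2(FPKM + 0.1) was tested, so fold changes of low genes are understated. Benjamini-Hochberg adjustment ran over all genes tested, with calls at an adjusted p under 0.05. The script was tested on simulated data. Read counts were not used here; fragment numbers are approximate and came from the lowest FPKM steps of genes of 200 to 400 bp, and sampling error is not separated from the spread between samples. From the pathway lists, genes were named if called and among the 3 largest changes of their list in a comparison, plus COP1, PHYA, PHYB and CRY1. PRR7, PRR9, TOC1, LUX, ELF4, HAT2 and HAT3 fall outside this rule and were named after their values were seen. They are not among the named pathway genes counted under the alternatives below. Alternatives were a pseudocount of 1, no filter, a mean FPKM of at least 2, 2 other scalings, no trend, all 9 samples in one fit, a replicate block and leaving out each sample. Python 3.11.15, pandas 2.3.3, scipy 1.17.1 and matplotlib 3.10.9 made the tables and figures.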

Additional observations from a re-analysis of the deposited data

How the results depend on the processing

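No result for a regulator or a named pathway gene that was called on either side changed its direction under any alternative run. Of 226 tests of regulators under alternatives that left out no sample 219 kept their side of the threshold, and of 173 that left out a sample 167 did. Of 648 tests of named pathway genes with no sample left out 625 kept their side and 19 lost the call, these being of CRY2, UVR8, SPA1 and PRR5 under submergence and BBX30, F3H, FLS1 and RGL1 under flooding. PIF3 under flooding was called after quantile normalization (log2 fold change −0.42, limma adjusted p = 0.0295) and with all 9 samples in one fit (0.0471), where PIF7 was not (0.0611). Regulators down under flooding numbered 1 rather than 2 with a mean FPKM of at least 2, since HFR1 was then not tested. Under submergence, genes down numbered 1011 rather than 1590 with the replicate block, and pathway genes down 5 rather than 8 with it and without the trend. Between flooding and submergence, where 0 genes were called, 1 was down without the trend, and with all 9 samples in one fit 90 were up and 141 down, among them 1 regulator and 5 pathway genes, all down. The share of calls that were up under flooding was 39.8%, and 53.3% after median-of-ratios rescaling, which moved the median log2 fold change of all genes to −0.004, against −0.101 without it. Under submergence this share was 51.6%, and 41.4% after quantile normalization.

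Leaving out each sample gave, under submergence, 890 to 2019 genes up, 489 to 2187 down, 1 to 2 regulators up, 0 to 1 down, 10 to 18 pathway genes up and 4 to 10 down. Under flooding it gave 1643 to 3436 genes down and 9 to 19 pathway genes up, and between the stresses 0 to 4 genes up and 0 to 2 down. Same-numbered samples did not deviate together in every pair (r from −0.149 to 0.472). Between flooding and submergence r was 0.064, 0.164 and 0.472 for replicates 1, 2 and 3. Whether samples of the same number shared more than the number is not settled by these values. The replicate block changed the call of 0 regulators. Low levels limit HFR1 and PIL1 among the regulators, and at least YUC5, IAA29 and PRE1 among the named pathway genes.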

Other observations

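The genes closest in pattern to PIF5 and HFR1, the called regulators with the largest change under submergence and flooding, were sought among 12988 genes with a mean of at least 5 FPKM, by Pearson r of log2(FPKM + 0.1) over the 9 samples, which share their groups and libraries. Closest to PIF5 were AT4G32350 (r = 0.9913), the zinc finger gene ZAT6 (0.9905) and AT2G01340, listed as At17.1 (0.9884). ZAT6 had 42.2, 35.0 and 39.6 FPKM in flooding samples, 23.7, 45.5 and 47.5 FPKM in submergence samples and 6.62, 4.73 and 6.42 FPKM in control samples. As for PIF5, its lowest sample under water was submergence replicate 1. Closest to HFR1 were ASK7 (AT4G18710, r = 0.9915), ERCC1 (AT3G05210, 0.9915) and SAC3C (AT3G54380, 0.9897). The protein kinase gene ASK7 had 63.5, 67.6 and 64.7 FPKM in flooding samples, 75.6, 81.3 and 79.4 FPKM in submergence samples and 82.3, 82.4 and 86.8 FPKM in control samples. Its spread over the groups is much narrower than that of HFR1, since r does not depend on the size of a change.

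When all 9 samples were fitted together, 6 genes differed between flooding and submergence (limma), among the 10 regulators and 63 pathway genes tested. All 6 were lower under flooding. Over the 18864 genes of that fit 39% of the calls were up, and the numbers called are given above. Apart from HFR1 the 6 genes were PHYA, BEE1, BBX21, PAR1 and BBX20, of which all but PHYA were named after their values were seen. BEE1, a helix-loop-helix gene induced by brassinosteroid, had 7.87, 12.1 and 7.46 FPKM in flooding samples, 22.2, 20.7 and 17.7 FPKM in submergence samples and 9.55, 7.81 and 6.44 FPKM in control samples. PAR1, which like HFR1 restrains shade responses, had 8.61, 15.0 and 13.7 FPKM in flooding samples, 28.4, 22.9 and 22.5 FPKM in submergence samples and 7.56, 8.57 and 8.53 FPKM in control samples. For both genes the submergence samples stood above all others. BBX21, an activator of HY5, had 12.9, 14.7 and 9.01 FPKM in flooding samples, 22.5, 24.8 and 19.3 FPKM in submergence samples and 22.9, 20.9 and 22.5 FPKM in control samples, so here the flooding samples stood below all others. In the fit on 6 samples none of the 6 was called.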
